A study of Rattus norvegicus with 4 samples.

Results

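The 10 genes described here break down heme or handle the iron that this releases. They are the heme oxygenase genes Hmox1 and Hmox2, the biliverdin reductase genes Blvra and Blvrb, the ferritin subunit genes Fth1 and Ftl1, and the metal transport genes Tfrc, Slc40a1, Slc11a1 and Slc11a2. They were chosen by name, and their probes were found through the RefSeq accession of each array spot. All 10 were measured, of 16581 named genes in all, by 15 probes in 16 spots on each array.

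The cells were NR8383, a macrophage line established from rat lung lavage, grown in medium with serum and antibiotics and used after 20 passages. Cells were seeded for 48 h, and the exposure lasted 4 h. The agent was carbon nanotubes carrying amino groups, named NRCWE049, at 1.2 cm2/cm2. Total RNA of 4 biological replicates was labelled with Cy3 and measured on 1-colour Agilent rat arrays. The series describes unexposed cells as the comparison, and these were not analysed here. The values therefore describe exposed cells of 1 line and cannot show which of these genes the nanotubes changed.

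Heme oxygenases open the heme ring and release iron, carbon monoxide and biliverdin, and biliverdin reductases turn biliverdin into bilirubin. Hmox1 is the inducible enzyme, repressed by BACH1 and activated by NRF2, and Hmox2 is the constitutive one. Released iron is stored in the ferritin shell or leaves the cell through ferroportin, and macrophages of the lung take up heme and iron with engulfed cells and particles. Iron regulatory proteins act on the ferritin and transferrin receptor messengers, largely through translation and messenger stability.

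Sequences upstream of the start sites were at hand for 6 of the 10 genes, in 8 windows of 250 bases, from RefSeq on the GRCr8 assembly. Hmox1, Fth1, Ftl1 and Slc11a1 are named only. The windows were searched on both strands for ACGTG, the core of the hypoxia response element, TGACNNNGC, the core of the antioxidant response element through which NRF2 acts, the AP-1 site TGAGTCA and the GC box GGGCGG. The 3 windows that hold ACGTG or TGACNNNGC are printed with those matches in capitals, 5′ to 3′ along the gene's own strand, because these elements belong to pathways known to act on heme and iron genes. The lines give Tfrc at chr11:81690319-81690568 (minus strand), Hmox2 at chr10:11337613-11337862 (minus strand) and Blvra at chr3:134802660-134802909 (plus strand).
Tfrc promoter: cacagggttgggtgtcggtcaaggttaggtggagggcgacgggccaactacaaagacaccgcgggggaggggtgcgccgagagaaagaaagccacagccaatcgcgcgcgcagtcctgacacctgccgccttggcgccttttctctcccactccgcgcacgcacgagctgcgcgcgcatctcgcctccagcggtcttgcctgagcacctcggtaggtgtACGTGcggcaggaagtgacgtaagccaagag
Hmox2 promoter: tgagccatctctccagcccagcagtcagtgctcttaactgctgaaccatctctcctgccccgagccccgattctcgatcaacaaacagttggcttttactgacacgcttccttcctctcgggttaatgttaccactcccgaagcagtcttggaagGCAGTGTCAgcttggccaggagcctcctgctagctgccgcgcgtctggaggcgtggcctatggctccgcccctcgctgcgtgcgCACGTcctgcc
Blvra promoter: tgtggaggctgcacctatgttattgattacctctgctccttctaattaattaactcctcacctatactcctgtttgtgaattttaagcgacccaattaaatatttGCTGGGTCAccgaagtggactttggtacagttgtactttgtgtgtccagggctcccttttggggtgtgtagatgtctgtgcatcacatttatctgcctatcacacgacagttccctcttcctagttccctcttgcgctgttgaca
The Tfrc window holds ACGTG on the gene's strand, beginning 31 bases before the start site. The Hmox2 window holds ACGTG on the opposite strand at 11 bases and TGACNNNGC at 95 bases before the start, and the Blvra window holds TGACNNNGC at 145 bases, both also on the opposite strand. The GC box was found in windows of Blvrb (5 matches, 2 of which share a base), Slc11a2 (4), Slc40a1 (3) and Hmox2 (1), and TGAGTCA in none of the 8. None of the matches in the 3 printed windows overlap. Of 33465 such windows in the table, 16.6% hold ACGTG, 10.1% TGACNNNGC, 4.05% TGAGTCA and 30.5% GGGCGG. A match is a run of letters and not a shown binding site.

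A gene's level is its log2 processed signal minus the 75th percentile of that array's detected probes, so that a level of 1 is a signal 2 times that percentile. Levels serve to follow a gene between replicates and are not set against those of another gene. Detection required Agilent's mark of a signal well above background on each of the 4 arrays. The 75th percentile lay at signals from 1970 to 2493, and from 19143 to 19311 of 45598 probes were well above background per array. No spot was saturated, and the 16 spots of these genes carried no outlier flag. Replicates 3 and 4 were closer to each other than any other pair. The median difference of a detected gene between them was 0.085 on the log2 scale, against 0.149 to 0.206 for the other 5 pairs. Different spots of a probe on these 2 arrays differed by a median of 0.100, against 0.058 to 0.090 for 2 spots on the same array over the 4 arrays. They were counted as separate samples as labelled, and whether they share an RNA source was not tested. The 4 arrays share 1 slide. The series calls the samples biological replicates and does not say how they were separated. The p-values below only set a gene's spread between these samples against that of other detected genes on the same arrays. They take the 4 samples as independent.

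Macrophage markers were present and those of red cell precursors largely were not. Of 18 measured macrophage and alveolar macrophage markers, 15 were detected, among them Cd68 and Pparg (Adgre1, Marco and Car4 were not). Of 41 markers of other cell types, 14 were detected, where 52.5% of all named genes were. These 14 included the endothelial markers Vwf (mean level 1.87) and Pecam1 (-1.08) and the neutrophil marker Camp (0.44). Of 9 measured erythroid markers, 3 were detected (Hba-a1, Hba-a2 and Klf1). Those at or near background included Hbb, Alas2, Gata1 and Slc4a1. The dim Klf1, at levels of -5.33, -5.03, -6.28 and -6.58 in replicates 1 to 4, was higher in replicates 1 and 2, like Hmox1. The brighter Hba-a1 was highest in replicate 1 (-2.23) and between -2.67 and -2.57 in the others. The dim Hba-a2 was highest in replicate 3 (-6.25) and between -6.55 and -6.54 in the others. The median deviations of the 3 genes from their own means were 0.292, -0.065, -0.040 and -0.144 in replicates 1 to 4. Their part in the values below was not tested.

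Of the 10 heme and iron genes, 9 were detected on every array, where 52.5% of all named genes were. The iron exporter gene Slc40a1 was the exception. Of the detected members, Hmox1 varied most between the replicates and Blvrb least. Across the 9, the SD between replicates ran from 0.013 to 0.54 with a median of 0.21, beside a median of 0.15 over 8713 detected genes. No member passed the test of variation between replicates, an F test on limma residual variances with adjusted p-values over all detected genes. That test called 0.0115% of the detected genes, which was Selenop alone (adjusted p = 0.0387, limma F test), named after its values were seen. At an unadjusted p under 0.05, 2 of the 9 members passed (Hmox1 and Slc11a1), beside 4.3% of the detected genes. With the mean over a gene's probes 4 passed (Fth1 and Ftl1 as well), and with normexp, among other alternatives, Hmox1 alone did. The highest replicate was over 2-fold above the lowest for 1 member, Hmox1, and for 2.66% of the detected genes.

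Most members had their highest level in replicate 2, 6 of 9 (Hmox1, Hmox2, Blvra, Blvrb, Fth1 and Ftl1), where 24.8% of all detected genes did. The others were Tfrc and Slc11a1 in replicate 1 (34.6% of genes) and Slc11a2 in replicate 4 (24.7%), with none in replicate 3 (15.9%). The lowest level fell in replicate 4 for 5 members (23.7% of genes), in replicate 3 for Hmox1 and Blvra (20.4%), in replicate 2 for Slc11a1 (27.4%) and in replicate 1 for Slc11a2 (28.5%). With the percentile taken over all probes, Blvra, Blvrb, Fth1 and Ftl1 were highest in replicate 1 instead. Members of 1 pathway measured on the same arrays are not independent of each other.

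**Figure D1:**
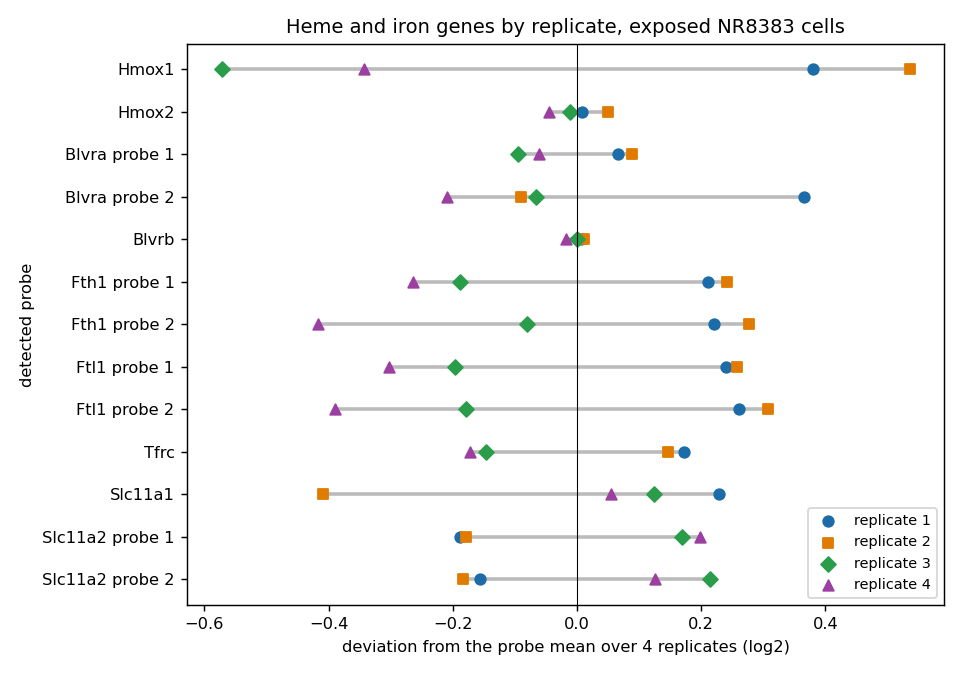
Deviation of each detected probe from its own mean over the 4 replicates (log2 units, horizontal axis), 1 row per probe, with probe 1 the brighter where a gene has a pair; symbols mark the replicates and the grey bar spans lowest to highest. Hmox1 spans 1.11, Blvrb 0.029, and Slc11a2 runs opposite to Hmox1, Fth1, Ftl1 and Tfrc.

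Hmox1 was measured by 1 spot per array. The processed signals of replicates 1 to 4 were 25033, 28058, 16385 and 18503. Relative to the array percentile, the levels were 3.67, 3.82, 2.72 and 2.95, with a mean of 3.29 ± 0.54 (SD, n = 4). Replicates 1 and 2 were high and replicates 3 and 4 low, with a gap between the pairs wider than the gap within either. The share of all detected genes with such a split was not counted, and replicates 3 and 4 were the closest pair over all genes. The highest replicate stood 2.16 times above the lowest. Agilent's own error estimate for each of these signals was 10% of the signal. It was about 10% for every detected spot of the members, and so tells nothing particular to Hmox1. The SD of Hmox1 was larger than that of 98.7% of detected genes. Against the variance of genes of its level, the F test gave an unadjusted p of 0.00164 and an adjusted p of 0.636 (limma), so the spread did not pass the threshold over all genes. The unadjusted p stayed under 0.05 in each of the 17 alternatives, and the adjusted p ran from 0.114 to 0.953. The 55 detected spots within 5 rows and columns had median deviations between -0.022 and 0.087 on the 4 arrays. The 100 genes nearest to Hmox1 in level had median deviations from -0.044 to 0.032.

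Hmox2, the constitutive enzyme, was nearly the same on all arrays. Its levels were 0.022, 0.064, 0.003 and -0.031 in replicates 1 to 4 (mean 0.014 ± 0.039, SD, n = 4), and the highest replicate was 1.07 times the lowest. Only 3.19% of detected genes had a smaller SD (unadjusted p = 0.956, adjusted p = 0.9996, limma F test). The Hmox1 and Hmox2 enzymes share a reaction, and their messengers differed in spread: 0.54 against 0.039 on the log2 scale. This difference in SD was not itself tested.

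Both biliverdin reductase genes had small spreads. Blvrb, which encodes biliverdin reductase B, had levels of 2.09, 2.10, 2.09 and 2.07, an SD of 0.013 that was below that of all but 0.172% of detected genes. Its span of 0.029 and its order of replicates depended on the scaling. The span was 0.063 with the median, 0.095 with the percentile over all probes and 0.154 with normexp. Blvra encodes the main adult biliverdin reductase and had 2 probes. The brighter probe gave levels of 1.99, 2.01, 1.83 and 1.86 (SD 0.091). The dimmer probe gave -1.12, -1.58, -1.55 and -1.70 (SD 0.25), where replicate 1 stood above the other 3. The deviations of both probes differed by 0.30 in the most discordant replicate, and they placed replicate 2 differently, above the mean by the brighter probe and below it by the dimmer. Over 1410 genes with exactly 2 detected probes, 64.7% had probes that agreed better than those of Blvra.

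The ferritin genes followed Hmox1 in direction, with smaller differences. Fth1, the heavy subunit with ferroxidase activity, had levels of 6.34, 6.37, 5.94 and 5.87 in replicates 1 to 4 (mean 6.13 ± 0.26, SD, n = 4). Ftl1, the light subunit, had 6.74, 6.76, 6.31 and 6.20 (mean 6.50 ± 0.29, SD, n = 4). For both, replicates 1 and 2 lay within 0.03 of each other and above replicates 3 and 4. The second probe of each gene also had replicates 1 and 2 above replicates 3 and 4: 6.04, 6.10, 5.74 and 5.41 for Fth1, and 6.25, 6.30, 5.81 and 5.60 for Ftl1. Before scaling, the processed signals of this Fth1 probe were 130043, 135967, 133482 and 101883, with replicate 3 above replicate 1. The brighter Fth1 probe and both Ftl1 probes were highest in replicates 1 and 2 before scaling too. The percentile that divides the signals was higher for replicates 3 and 4, and its part was not tested. Neither spread passed the variance test (unadjusted p = 0.0796 for Fth1 and 0.0610 for Ftl1, adjusted p = 0.969 for both, limma F test). Ferritin genes have many near-identical copies, and whether these share signal on the probes was not tested.

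The ferritin pattern was shared in direction with the median of other very bright genes, and was wider than in most of them. For both ferritin genes, the 100 genes used were the brightest other detected genes. Their mean level of 5.98 was below that of Ftl1 (6.50) and Fth1 (6.13). The 100 for Ftl1 had median deviations of 0.148, 0.163, -0.114 and -0.208 in replicates 1 to 4. Ftl1 deviated by 0.241, 0.258, -0.196 and -0.303, so that 0.19 of its span of 0.56 was left after subtracting those medians. For Fth1, 0.154 of a span of 0.51 was left. Before that step, the span of Ftl1 was wider than that of 91% of its 100 nearest genes, and that of Fth1 wider than 79%. What was left still lay above the mean in replicates 1 and 2 and below it in replicates 3 and 4 for both genes. In the brightest of 20 bins of level, with a mean level of 4.56, the median deviations were smaller, at 0.086, 0.054, -0.032 and -0.094. Whether the lower level of the 100 genes accounts for what was left was not tested. Hmox1 kept a span of 1.11 after subtracting the medians of its own 100 nearest genes. Quantile normalization, which gives each array the same distribution of signals, cut the span of Ftl1 to 0.178 and that of Fth1 to 0.164, and left Hmox1 at 1.07. The comparison with genes of like level was chosen after the values were seen.

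**Figure D2:**
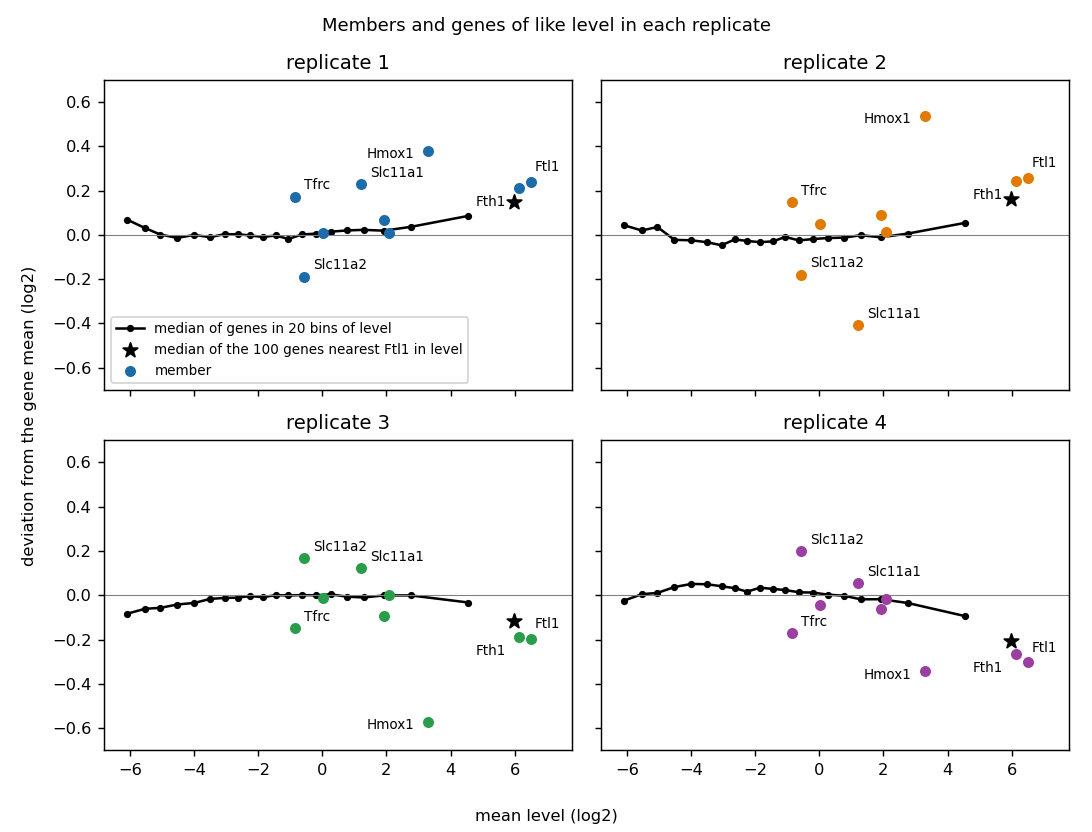
Deviation from the gene mean (log2 units, vertical axis) against mean level (log2, horizontal axis), 1 panel per replicate; coloured points are the 9 detected members, the black line is the median of detected genes in 20 bins of level and the star the median of the 100 genes nearest Ftl1 in level. Those 100 genes are the brightest detected genes other than Ftl1, with a mean level of 5.98. The ferritin genes lie close to the star in each panel, and Hmox1 lies far from the line.

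Of the transport genes, Tfrc and Slc11a2 ran in opposite directions between the replicates. Tfrc, the transferrin receptor that brings iron into endosomes, was measured by 1 probe in 2 spots. Its levels were -0.68, -0.71, -1.004 and -1.03 in replicates 1 to 4 (mean -0.86 ± 0.18, SD, n = 4). Replicates 1 and 2 were above replicates 3 and 4, and the highest was 1.27 times the lowest. Its processed signal before scaling lay between 1091 and 1272 over both spots, and the percentile that divides it was higher for replicates 3 and 4. The span, 0.344, was 0.415 with the percentile over all probes, 0.383 with the median and 0.391 with quantile normalization. In these, replicate 1 stayed highest and replicate 4 lowest. With normexp it was 0.318, with replicate 2 highest and replicate 3 lowest. The part of scaling in this difference was not tested. The variance test did not call it (unadjusted p = 0.246, adjusted p = 0.969, limma F test).

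Slc11a2 encodes DMT1, which moves iron from endosomes to the cytosol. Its levels were -0.77, -0.76, -0.41 and -0.38 in replicates 1 to 4 (mean -0.58 ± 0.21, SD, n = 4). Replicates 3 and 4 were above replicates 1 and 2, the reverse of Hmox1 and Tfrc. How many of all detected genes split into these pairs, in either direction, was not counted. The split is therefore not shown to be particular to these genes. The second probe gave -0.79, -0.82, -0.42 and -0.51. Both probes agreed closely, with a root mean square difference of 0.045 between their deviations, smaller than in all but 8.94% of the genes with 2 detected probes. The spread itself was not past the test (unadjusted p = 0.153, adjusted p = 0.969, limma F test).

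Slc11a1, the NRAMP1 transporter of the phagosome membrane in macrophages, had a pattern of its own. Its levels were 1.43, 0.79, 1.33 and 1.26 (mean 1.20 ± 0.28, SD, n = 4). Replicate 2 was low and the other 3 lay within 0.18 of each other. The unadjusted p was 0.0354 and the adjusted p 0.969 (limma F test), and without replicate 2 the unadjusted p was 0.556. The 54 detected neighbouring spots had a median deviation of -0.043 in replicate 2, against -0.53 for Slc11a1 itself relative to the median of the other arrays. Its 1 spot lay in a dim area of the array in replicate 1, where it was highest and its neighbours had a median deviation of 0.015.

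Slc40a1 encodes ferroportin, the exporter of iron. Neither of its 2 probes was well above background on any array. The first gave processed signals of 3.77, 3.98, 4.41 and 17.3 in replicates 1 to 4, and the second 3.53, 7.45, 4.24 and 4.23. The lowest signals that Agilent called well above background were 16.6, 18.0, 20.1 and 20.1. The first probe in replicate 4 and the second in replicate 2 were positive and significant by Agilent's weaker flag. The 2 probes differed in which replicate was highest, and no level is given.

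**Figure D3:**
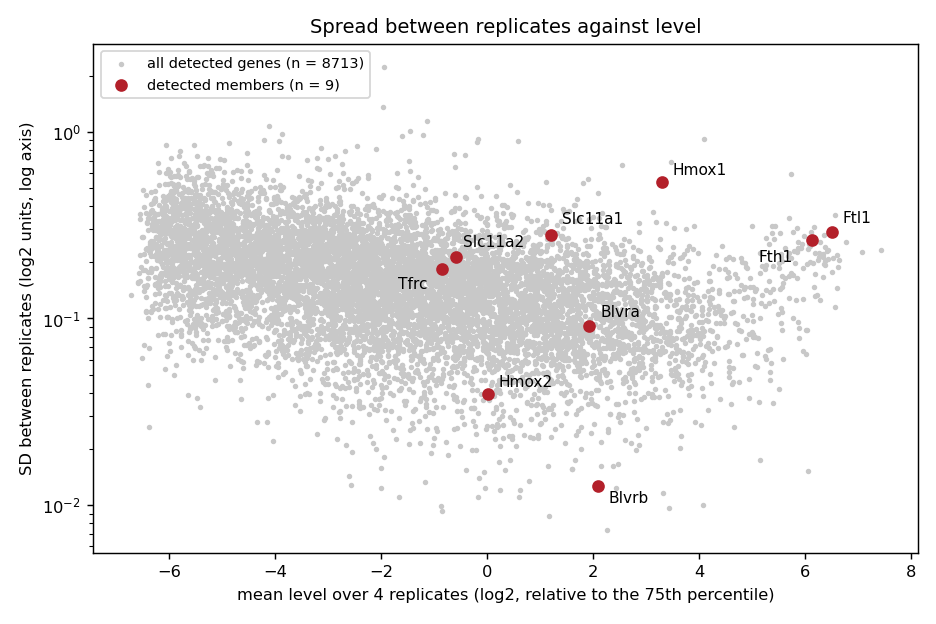
SD between the 4 replicates (log2 units, log axis) against mean level (log2, relative to the 75th percentile) for all 8713 detected genes in grey and the 9 detected members in red. Hmox1 (0.54) lies at the upper edge for its level, the ferritin genes lie among other very bright genes, Hmox2 (0.039) lies below most genes, and Blvrb (0.013) lies at the lower edge.

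The genes whose deviations were most like those of Hmox1 were found by the root mean square difference over the 4 arrays, among 8712 other detected genes. The nearest were LOC100909928 (0.068), the zinc finger gene Zfp575 (0.072), Gen1, which encodes a Holliday junction resolvase (0.075), the incretin gene Gip (0.099) and the splicing regulator gene Tra2a (0.102). A gene with no deviation at all would be at 0.468, and the median gene was at 0.475. Tra2a had levels of -0.10, 0.02, -0.82 and -0.79 in replicates 1 to 4. The other 4 had mean levels from -6.01 to -4.63, where the spread between arrays is wide. With 4 arrays many profiles can lie close to one another, and without any 1 replicate from 1 to 3 of these 5 genes remained among the nearest. Among the members, Ftl1 ranked 113th (0.245), Fth1 147th (0.259) and Tfrc 472nd (0.318). Slc11a1 (0.624) and Slc11a2 (0.648) were far from Hmox1.

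**Figure D4:**
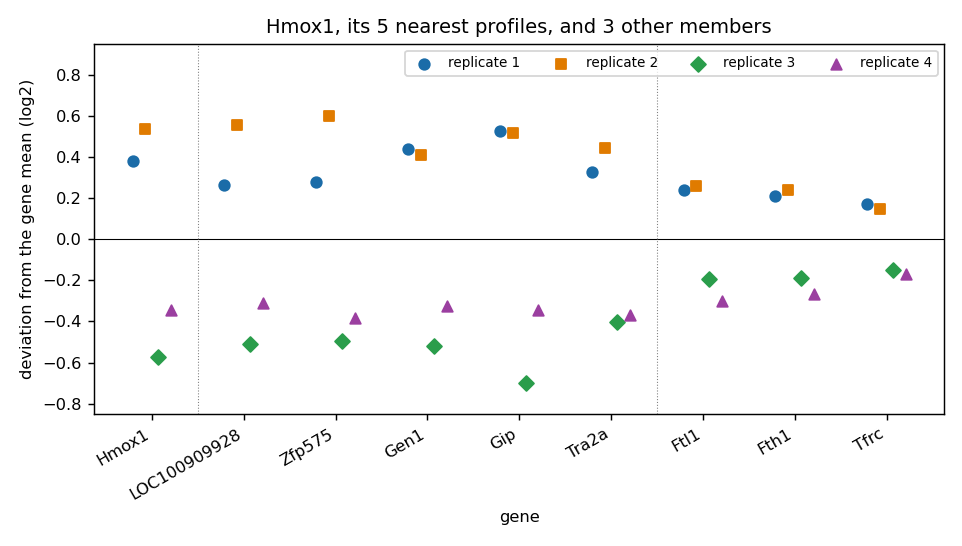
Deviation from the gene mean (log2 units, vertical axis) in each of the 4 replicates for Hmox1, the 5 genes with the smallest root mean square difference from it, and the members Ftl1, Fth1 and Tfrc, separated by dotted lines. All 9 genes are above their mean in replicates 1 and 2 and below it in replicates 3 and 4; the 5 were selected for this likeness.

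All 8 listed regulators of Hmox1 were detected. Nfe2l2, which encodes NRF2, had a level of 0.27 ± 0.18 (SD, n = 4), and Keap1, its inhibitor, -2.83 ± 0.08. Bach1, the repressor of Hmox1, was dim, at -5.74, -4.55, -5.47 and -5.51 in replicates 1 to 4, and so highest in replicate 2. Maff, a small MAF partner of both factors, had levels of -3.43, -3.21, -2.16 and -2.15, low in replicates 1 and 2, where Hmox1 was high. Maff was the member of the list with an unadjusted p under 0.05 (0.00455, adjusted p = 0.969, limma F test). Of 14 other NRF2 targets, 13 were detected, and Gclm was not. Nqo1 stood at -2.77 ± 0.13 and Gclc at 0.46 ± 0.12. Txnrd1, the thioredoxin reductase gene, was at -1.84, -1.81, -1.65 and -1.01, highest in replicate 4, where Hmox1 was low (unadjusted p = 0.0269, adjusted p = 0.969, limma F test). The transketolase gene Tkt was at 6.05, 5.92, 5.70 and 5.38, an order close to that of the bright ferritin genes (unadjusted p = 0.0498, adjusted p = 0.969, limma F test). The median deviations of the list were -0.057, 0.068, -0.020 and 0.051, against 0.379, 0.536, -0.572 and -0.343 for Hmox1.

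Of the 9 heme synthesis genes reported here, 8 were detected, with a median SD of 0.096, and the erythroid Alas2 was not. Alas1, the rate-limiting enzyme outside red cell precursors, had a level of 3.12 ± 0.16 (SD, n = 4) and Alad 2.36 ± 0.08. Uros, at -4.36, -4.53, -4.93 and -4.76, was among the 3 listed genes nearest to Hmox1 (0.285), with Cyb561d2 (0.262) and Tkt (0.320). Heme transport was detected in part, with 3 of 8 measured genes. These were Slc48a1, which moves heme out of the phagolysosome, the hemopexin receptor gene Lrp1 (-2.13 ± 0.14) and Pgrmc1 (-1.86 ± 0.12). Flvcr2 and 4 others (Abcg2, Hpx, Hp and Cd163) did not reach detection. Slc48a1 had levels of 0.64, 0.21, 0.11 and 0.02, highest in replicate 1 (unadjusted p = 0.0489, adjusted p = 0.969, limma F test).

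Iron sensing genes were all detected, 7 of 7 measured. Aco1, which encodes iron regulatory protein 1, was at 1.75 ± 0.07 (SD, n = 4). Ireb2, which encodes iron regulatory protein 2, was dim at -6.04 ± 0.25. Of 16 genes of iron uptake, reduction and export, 13 were detected, and Steap4, Cybrd1 and Heph were not. Steap3, an endosomal iron reductase gene, was at -4.74 ± 0.19. Lcn2, whose product binds iron-carrying siderophores, had levels of 4.50, 3.06, 3.10 and 3.22 in replicates 1 to 4 and stood 2.71-fold apart at the extremes (unadjusted p = 4.77e-04, adjusted p = 0.351, limma F test). Cyb561d2, a reductase gene, was at -0.08, -0.07, -0.48 and -0.66, in the direction of Hmox1 (unadjusted p = 0.0443, adjusted p = 0.969, limma F test). Of 10 measured iron-sulphur cluster genes, 10 were detected with a median SD of 0.094, among them Iscu (1.05 ± 0.10) and Nfs1 (-1.22 ± 0.13). Of 10 ferroptosis genes, 8 were detected, including Gpx4 (5.73 ± 0.18), Acsl4 (-4.34 ± 0.29) and Aifm2 (-1.15 ± 0.07), and Ptgs2 and Alox15 were not. Chac1 was at -2.10, -1.71, -1.47 and -1.31 (unadjusted p = 0.0472, adjusted p = 0.969, limma F test). Over these 8 lists, 69 of 81 measured genes were detected, where 52.5% of all named genes were, with a median SD of 0.142, and 0 passed the variance test (limma), while 7 (10.1%) had an unadjusted p under 0.05, beside 4.3% of all detected genes. These lists were chosen with earlier results known, and the shares are a description.

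**Figure D5:**
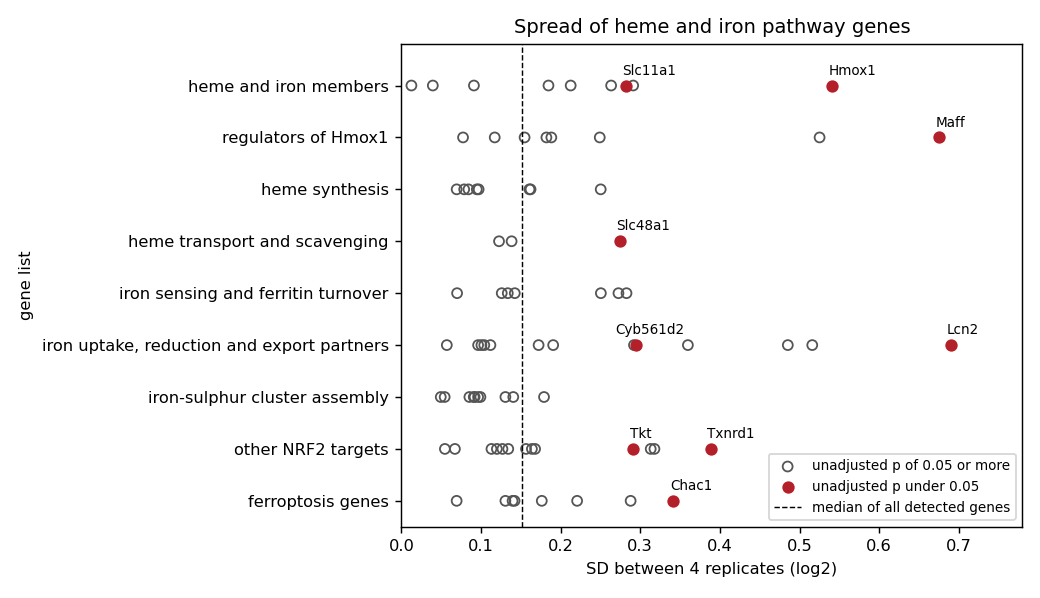
SD between the 4 replicates (log2 units, horizontal axis) of each detected gene, by list; filled points have an unadjusted p under 0.05 in the variance test, and the dashed line is the median of all detected genes (0.15). Hmox1 (0.54), Maff (0.68) and Lcn2 (0.69) lie farthest to the right among the filled points.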

How the data were processed

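The 4 samples form 1 group. The intensities are processed signals, already corrected for background within each array, that the authors deposited as made by Agilent Feature Extraction 11.0.1.1, per the file headers; the sources used here give no scaling between arrays. The headers name rn4 as the array's build, so accessions were matched without versions to the RefSeq table of GRCr8, and windows upstream of genes come from that assembly. Control spots (4259 of 62976) and outlier flags were left out, repeated spots were averaged as log2 signals, and the brightest detected probe stood for a gene. Of 45598 probes, 21109 were named.

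The variance test (limma 3.58.1, R 4.3.3) set each gene's residual variance (3 degrees of freedom) against that expected at its level, one-sided, adjusted by Benjamini-Hochberg over 8713 genes at 0.05. In simulated data of 8713 genes it recovered 0% of genes with a 3-fold SD, 2% at 5-fold, 16% at 10-fold and 54% at 20-fold. An uncalled gene may therefore still vary, and 4 arrays limit the precision. At an unadjusted p under 0.05 the shares were 38%, 82%, 94% and 100%. Of genes with an unraised SD, 2.01% had such a p, against 4.3% in the real data. The expected variance was fitted with the raised genes included, so the simulated setting differs from these data. Named genes are the 10 members, the first 3 of each list, up to 5 exceptions in detection, genes nearest Hmox1, and list genes with an unadjusted p under 0.05. Of the first 3, Flvcr1 and Fbxl5 were not matched to a probe. Further, 2 list genes are not reported here, and the counts of their lists leave them out. The members, lists and rules were chosen with earlier results of these data known. Alternatives were other scalings, normexp, flagged spots, the mean over probes, dim areas, detection rules, variance models, no filter and each replicate left out. Averaging replicates 3 and 4 was added after seeing the data. A dim area was a block of a 12 by 10 grid where at least 10% of detected spots were 1 log2 unit or more below the median of the other arrays. Normexp used the median spot signal. The data.table package (1.17.8) read the files and matplotlib 3.10.9 drew the plots.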

Additional observations from a re-analysis of the deposited data

Results flagged for a closer look

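Of 52 sets of 4 values (13 member probes, the named list genes and the median deviations of lists), 2 had 1 replicate far from the others (gap over range, Dixon's test); about 2.6 would be expected by chance, since 1 in 20 sets passes. None was a probe of the 10 members, whose largest ratio was 0.751. Lcn2 was high in replicate 1 (ratio 0.890), at 4.50 against 3.06 to 3.22. Alad was low in replicate 4 (ratio 0.862), at 2.24 against 2.39 to 2.42.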

How the results depend on the processing

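No paired analysis was possible because the 4 samples form 1 group. The count of detected members stayed at 9, except 8 with dim areas left out, where the spot of Slc11a1 in replicate 1 was removed. No member passed the variance test under any of the 17 alternatives. The span of Hmox1 ran from 0.887 to 1.12. The count of variable genes over the array, 1, was 9 with the 75th percentile over all probes and with replicates 3 and 4 averaged, 4 with flagged spots kept and 2 with detection on 3 of 4 arrays. It was 0 with quantile normalization, without dim areas, without the intensity trend and without the filter on dim probes, and 0 to 9 without 1 replicate. Of the 5 genes nearest Hmox1, 1 was kept with normexp and 1 to 3 without 1 replicate. The causes were not tested. Without replicate 2 the span of Slc11a1 fell to 0.179 from 0.638. The mean over probes took the span of Blvra from 0.184 to 0.35, and normexp that of Hmox2 from 0.0945 to 0.172. The span of Blvrb, 0.0287, was 0.0626 to 0.154 with the median, the percentile over all probes and normexp. Quantile normalization took Fth1 from 0.506 to 0.164 and Ftl1 from 0.56 to 0.178. The count of members with an unadjusted p under 0.05, 2, was 4 with the mean over probes. It was 1 with normexp, without dim areas, without replicate 2, without the trend and without the filter, where Slc11a1 no longer passed or was not tested. Slc40a1 lay at the background, which the arrays cannot resolve.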
